A study of Homo sapiens with 12 samples.

Results

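The 34 genes described here encode the enzymes of glycolysis, a glucose transporter, a lactate exporter, enzymes that set glycolytic flux, and components and targets of the response to low oxygen. They were chosen by name alone, as the rows of both deposited count tables that carry one of 34 gene symbols, and make up 34 of the 63299 genes listed. GPI had another row on an alternate scaffold with 0 counts in every library, which was left out. Of the 34 genes, 31 passed the filter on low counts and were tested among 17191 genes. CA9, SLC16A3 and ADM did not pass.

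RNA was sequenced from LNCaP-shPRMT5 cells, a derivative of the prostate cancer line LNCaP in which doxycycline induces a hairpin against PRMT5, an enzyme that dimethylates arginines of histones and splicing proteins. There were 12 libraries in 4 groups of 3. Irradiated knockdowns were given both 2 Gy and doxycycline (1 µg/mL, renewed each 48 h), irradiated controls 2 Gy and no doxycycline, non-irradiated knockdowns doxycycline alone, and non-irradiated controls neither. Irradiated cells were harvested 24 h after exposure. All 4 groups carry the hairpin, and no group with a control hairpin was analysed here, so PRMT5 loss and exposure to doxycycline cannot be told apart. Irradiated and non-irradiated libraries came in separate tables, so irradiation and any other difference between the tables cannot be told apart. The labels do not state whether replicates are separate cultures, and p-values therefore reflect the spread between these libraries alone, which may be technical.

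Glycolysis splits glucose into pyruvate in the cytosol. Its upper enzymes spend ATP to phosphorylate and cleave the sugar, its lower enzymes recover ATP, and lactate dehydrogenase turns pyruvate into lactate. Under low oxygen, prolyl hydroxylases of the EGLN family no longer mark the transcription factor subunit HIF1A for destruction, and HIF then induces most glycolytic genes together with genes of vessel growth, mitophagy and collagen modification. Arginine methylation by PRMT5 acts on both transcription and splicing.

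Total counts ran from 14801939 to 33158865 per library. PRMT5 had 31.3, 26.9 and 24.9 CPM (counts-per-million, with TMM scaling) in irradiated knockdowns, against 230, 187 and 187 CPM in irradiated controls, and 26.6, 30.8 and 32.8 CPM in non-irradiated knockdowns, against 186, 190 and 198 CPM in non-irradiated controls. The prostate luminal marker KLK3 had between 1782 and 4078 CPM in the 12 libraries. Of markers of other cell types, 7 fibroblast genes summed to 12.5 to 27.8 CPM, with COL1A2 at 0 in every library. The sums were 6.07 to 49.3 CPM for 4 endothelial genes, almost all of it VWF, and 0.732 to 9.98 CPM for 4 basal genes. The basal KRT5 had 8.44 CPM in the knockdown and 5.09 CPM in the control of pair 1 at 0 Gy. Elsewhere it had at most 0.0449 CPM. The leukocyte marker LCP1 had 48.1 to 259 CPM, highest in both libraries of pair 1 at 2 Gy (241 CPM in the knockdown and 259 CPM in the control), and the T cell marker CD3E was at 0 in every library. Of the fibroblast genes, the collagen COL3A1 was higher in knockdowns in both irradiation states with the replicate block described next (log2 fold change 1.82 ± 0.29, adjusted p = 0.00302, at 2 Gy and 1.93 ± 0.34, adjusted p = 0.00208, at 0 Gy), at levels of 0.239 to 2.88 CPM. Of the 4 tested fibroblast genes, only COL3A1 was called there. LUM had lower means in knockdowns (0.739 against 1.19 CPM at 2 Gy and 0.906 against 1.49 CPM at 0 Gy). PDGFRB was lower too (0.535 against 0.853 CPM and 0.27 against 0.443 CPM), and COL1A1 slightly higher (17.2 against 15.6 CPM and 17 against 15.4 CPM). The part of these markers in the results was not tested. Libraries with the same number within a table deviated together from their group means (correlations 0.23 to 0.78 across genes in 6 of 6 pairs, against −0.68 to 0.48 for different numbers of a table, where libraries 2 and 3 at 2 Gy also correlated), so each knockdown library is also set against the control library of its number, with the pair as a replicate block. Deviations from a group mean sum to 0, so the correlations for different numbers are tied to those for the same number and are no independent comparison. At 0 Gy the same-number correlations were 0.233, 0.255 and 0.296. Both libraries of pair 1 at 2 Gy stood apart. They lay above the other 4 irradiated libraries for 19 of 31 tested genes (61.3%, against 27.8% of all genes) and below them for 3 (9.68%, against 27.7%). LDHA was 2.09 times, HK1 1.95 times and PFKFB3 1.94 times the mean of the other 4 libraries there, and ENO2 was 0.549 times that mean. Counts of called genes are given with and without this pair.

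Per length of merged exons, the genes spanned from 645 CPM per kb for GAPDH to none for CA9, as means of 12 libraries. Merged length counts every annotated exon of a gene, so the order of genes also depends on the annotation. The most abundant messages were those of the enzymes that handle 3-carbon intermediates. After GAPDH, which oxidises glyceraldehyde 3-phosphate, came ENO1 (265 CPM per kb), the ubiquitous enolase, TPI1 (216), ALDOA (124), LDHB (120), PGK1 (104), PKM (92.4), LDHA (90.6), PGAM1 (86.5) and GPI (58.4). GAPDH exceeded ENO1, ENO1 exceeded TPI1 and TPI1 exceeded ALDOA in 12 of 12 libraries. For ALDOA, 48.1% of the 50-base words of its exons also occur in other genes, against 12.6% for TPI1. Its counts, and so its place below TPI1, are uncertain to that extent. LDHA exceeded PGAM1 in 6 of 12, so that order is not fixed. Messages for the phosphorylating upper steps were lower: PFKM led the phosphofructokinases at 27.2 CPM per kb, HK1 the hexokinases at 20.4, and PFKP had 4.81.

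Among the genes of the oxygen response, the mitophagy receptors BNIP3L (40.6 CPM per kb) and BNIP3 (32.3) and the factor HIF1A itself (29.3) stood highest. P4HA1, a subunit of the enzyme that hydroxylates collagen, had 20.6 CPM per kb and the angiogenic factor VEGFA 9.03. That order rests on merged lengths of 3093 bases for P4HA1 and 14431 for VEGFA. In CPM, VEGFA had means of 168 in non-irradiated knockdowns and 178 in non-irradiated controls, against 62.1 and 58.2 for P4HA1. The prolyl hydroxylase EGLN1 had 9.39 CPM per kb, against 1.16 for EGLN3. BNIP3 exceeded its neighbour ALDOC in 6 of 12 libraries, as ALDOC did HIF1A, so the order of these neighbours is not fixed. CA9, the membrane carbonic anhydrase that is a classical marker of HIF activity, had 0 counts in all 12 libraries, which allows at most 0.0905 to 0.203 CPM in a library, counting error only. Of its exon positions, 38.5% lie in an antisense gene, and 30.3% of its 50-base words also occur in other genes. Its counts are uncertain to that extent. The lactate exporter SLC16A3 had 1 to 10 counts and the peptide hormone ADM 1 to 11 counts in a library, and neither was tested. SLC16A1, the exporter's paralogue, was looked up after these values were seen and had between 118 and 257 CPM in the 12 libraries.

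**Figure D1:**
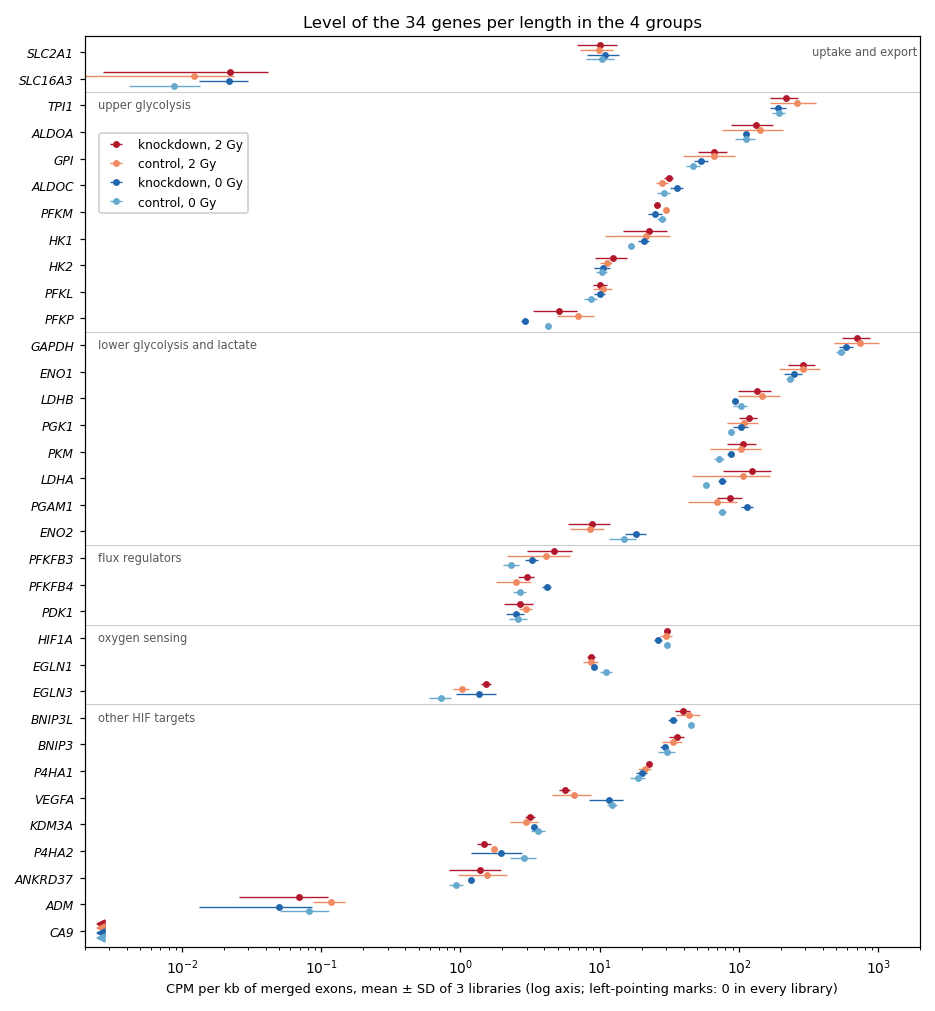
Level of each of the 34 genes per kb of merged exons (log axis), grouped by role; points are means of 3 libraries and bars SD, for irradiated knockdowns, irradiated controls, non-irradiated knockdowns and non-irradiated controls. The 12-library mean of GAPDH is 645 CPM per kb, that of EGLN3 1.16, and CA9 is at 0 in all 12 libraries.

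Without irradiation, no tested gene of these pathways differed by a factor of 2 in group means. Messages of the lower enzymes PGAM1, LDHA, PKM and ENO2 and of the upper enzymes HK1, PFKL and ALDOC were higher in knockdowns. So were those of the flux regulators PFKFB3 and PFKFB4 and of EGLN3, and those of PFKP, BNIP3L, EGLN1 and HIF1A were lower. How many of them pass depends on the pairing. In the model of group means, 0 of 31 had an adjusted p below 0.05 (edgeR's quasi-likelihood test, Benjamini-Hochberg over 17191 genes), where 1.54% of all genes did. There, 8 of 31 had an unadjusted p under 0.05, against 17.4% of all genes, and DESeq2 called 2, PFKFB4 and EGLN3, against 6.01% of all genes. With the replicate block, 14 of 31 passed (45.2%, against 27.8% of all genes). Of these, 10 were higher (32.3%, against 13.7%) and 4 lower (12.9%, against 14.1%), so the share called lower was near that of all genes. In bulk RNA, fewer cells that express a gene and less RNA per cell cannot be told apart.

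Per-library values gave a like picture. Libraries of both groups did not overlap for 12 of 31 genes (38.7%, against 31.1% of all genes), 8 of them higher in knockdowns (HK1, PGAM1, PKM, LDHA, PFKFB3, PFKFB4, EGLN3 and ANKRD37; 25.8%, against 15.4%) and 4 lower (PFKP, HIF1A, EGLN1 and BNIP3L; 12.9%, against 15.8%). The median log2 fold change was 0.19 over 17 glycolytic enzymes, with 13 positive and 4 negative, against 0.00 over all genes. Pair 1 at 2 Gy is in no non-irradiated group but enters the shared estimate of the spread: without it, and with no block, 9 of 31 passed (29%, against 14.7% of all genes), 6 higher (HK1, PGAM1, LDHA, PFKFB3, PFKFB4 and EGLN3) and 3 lower (PFKP, EGLN1 and BNIP3L). With only control library 1 at 2 Gy left out, 4 passed (PGAM1, PFKFB4, EGLN3 and BNIP3L), and with only knockdown library 1 at 0 Gy left out, 1 passed (P4HA2). The share of all genes called in these fits is not given, so these counts cannot be set against a background.

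For single genes in non-irradiated cells, log2 fold changes are knockdown over control ± the standard error, and adjusted p-values are from edgeR's quasi-likelihood test with the replicate block. Without the block, the adjusted p of the 14 genes ran from 0.0681 for EGLN3 to 0.644 for HK1.

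Among the lower enzymes, PGAM1 moved most. This phosphoglycerate mutase (chr10:97426160-97433441, + strand, GRCh38) had 262, 296 and 319 CPM in knockdowns, against 183, 207 and 194 CPM in controls. Every knockdown library lay above every control library, and its log2 fold change was 0.58 ± 0.08 (adjusted p = 0.000668), held whichever of the 6 pairs was left out. Of the 50-base words of its exons, 30.7% also occur in other genes, so its counts are uncertain to that extent. LDHA, the muscle-type subunit of lactate dehydrogenase, had 430, 495 and 484 CPM in knockdowns, against 363, 358 and 353 CPM in controls. The groups were separate, with a log2 fold change of 0.39 ± 0.09 (adjusted p = 0.00843), but the call was lost without pair 2 (0.0635) or pair 3 (0.0651) at 0 Gy. PKM, pyruvate kinase, had 698, 790 and 755 CPM in knockdowns, against 577, 669 and 600 CPM in controls, again with no overlap. Its log2 fold change was 0.28 ± 0.08 (adjusted p = 0.0227), and the call was lost without pair 2 or 3 at 0 Gy (0.0718 and 0.126) or pair 3 at 2 Gy (0.0506).

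ENO2, the neuronal enolase, had 67.7, 93.1 and 74.7 CPM in knockdowns, against 52.1, 79.0 and 60.6 CPM in controls. These ranges overlapped, but the knockdown was higher in 3 of 3 pairs, with a log2 fold change of 0.30 ± 0.07 (adjusted p = 0.00689) that was called whichever of the 6 pairs was left out. The remaining lower enzymes did not pass. GAPDH had 1542, 1849 and 1894 CPM in knockdowns, against 1541, 1736 and 1517 CPM in controls, a log2 fold change of 0.14 ± 0.09. PGK1 came closest (0.22 ± 0.08, adjusted p = 0.0552), ENO1 had 0.08 ± 0.08 and LDHB, the heart-type subunit, −0.14 ± 0.07.

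The upper enzymes went in both directions. PFKP, the platelet-type phosphofructokinase (chr10:3066333-3137712, + strand), had 14.4, 13.0 and 14.5 CPM in knockdowns, against 20.1, 20.0 and 21.4 CPM in controls. All knockdown libraries were lower, with a log2 fold change of −0.55 ± 0.09 (adjusted p = 0.00107), held whichever of the 6 pairs was left out. The liver-type PFKL had 79.6, 95.9 and 91.8 CPM in knockdowns, against 69.4, 76.5 and 85.8 CPM in controls. It was higher in 3 of 3 pairs with overlapping groups, at a log2 fold change of 0.21 ± 0.06 (adjusted p = 0.0327) that held in 2 of the 6 fits that left out a pair and was lost without pair 1 (0.0543) or 2 (0.237) at 0 Gy or pair 2 (0.0654) or 3 (0.0769) at 2 Gy. HK1, the housekeeping hexokinase, had 139, 124 and 115 CPM in knockdowns, against 100, 104 and 103 CPM in controls. Its libraries did not overlap, at 0.30 ± 0.08 (adjusted p = 0.0161), a call lost without pair 1 (0.0741) or 2 (0.0686) at 0 Gy. ALDOC, the brain-type aldolase, had 111, 112 and 92.3 CPM in knockdowns, against 84.4, 93.8 and 75.6 CPM in controls. It was higher in 3 of 3 pairs with a log2 fold change of 0.31 ± 0.08 (adjusted p = 0.0112), lost without pair 3 at 0 Gy (0.0559).

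The other upper enzymes and the transporter were not called. TPI1 had 439, 544 and 571 CPM in knockdowns, against 475, 583 and 512 CPM in controls, and its groups overlapped. HK2, GPI, PFKM, ALDOA and TPI1 had log2 fold changes between −0.17 and 0.19. SLC2A1, the glucose transporter GLUT1, had 37.8, 58.7 and 64.2 CPM in knockdowns, against 37.2, 57.9 and 56.4 CPM in controls, a log2 fold change of 0.08 ± 0.07. Both flux regulators of the PFKFB family were higher, enzymes whose product fructose 2,6-bisphosphate activates phosphofructokinase. PFKFB4 had 23.7, 27.7 and 24.8 CPM in knockdowns, against 16.8, 17.9 and 14.3 CPM in controls, without overlap (0.64 ± 0.11, adjusted p = 0.00182, held whichever of the 6 pairs was left out). PFKFB3 had 18.7, 15.6 and 19.4 CPM in knockdowns, against 14.5, 12.2 and 11.4 CPM in controls, also without overlap (0.50 ± 0.11, adjusted p = 0.00591, lost without pair 3 at 0 Gy at 0.0679). PDK1, the kinase that keeps pyruvate out of the mitochondrial dehydrogenase, was not called (−0.07 ± 0.14).

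In the oxygen-sensing group, EGLN3 had the largest positive fold change of the 31 genes. This prolyl hydroxylase (chr14:33924231-34462774, − strand) is itself induced by HIF. It had 13.7, 8.5 and 7.89 CPM in knockdowns, against 6.35, 4.51 and 5.17 CPM in controls, with no overlap (0.88 ± 0.14, adjusted p = 0.0013, held whichever of the 6 pairs was left out). EGLN1, the main oxygen sensor, had 64.8, 65.4 and 66.6 CPM in knockdowns, against 71.9, 85.3 and 85.5 CPM in controls. Here every knockdown library was lower (−0.30 ± 0.07, adjusted p = 0.0105), and the call was lost without pair 2 (0.0952) or 3 (0.0859) at 0 Gy. HIF1A had 138, 144 and 127 CPM in knockdowns, against 156, 163 and 150 CPM in controls. Its groups were separate too (−0.20 ± 0.06, adjusted p = 0.0286), a call lost without pair 2 or 3 at 0 Gy (0.101 and 0.161) or pair 3 at 2 Gy (0.0518).

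Of the other HIF targets, only BNIP3L was called in non-irradiated cells in this model. It had 132, 145 and 155 CPM in knockdowns, against 189, 190 and 204 CPM in controls, without overlap (−0.44 ± 0.06, adjusted p = 0.000757, held whichever of the 6 pairs was left out). Its paralogue BNIP3 had −0.06 ± 0.07. The histone demethylase KDM3A and the collagen hydroxylase subunit P4HA1 had −0.09 ± 0.09 and 0.09 ± 0.07. ANKRD37 was higher in 3 of 3 pairs but did not pass (0.37 ± 0.16, adjusted p = 0.107), at 2.19 to 3.14 CPM, and 35.2% of its exon positions lie in an antisense gene. VEGFA and P4HA2 split by pair. On the log2 scale the differences of VEGFA were 0.42, −0.39 and −0.38, and those of P4HA2 were 0.30, −1.06 and −1.02, for pair numbers 1, 2 and 3. A list of 18 proliferation genes split between the same pairs with the opposite sign, at mean log2 differences of −0.23, 2.25 and 1.76, with summed levels of 580, 1129 and 918 CPM in knockdowns, against 624, 328 and 344 CPM in controls. VEGFA split between the pairs in the same way at 2 Gy (0.56, −0.47 and −0.62), where the proliferation list was of 1 sign (−0.69, −0.56 and −0.51). The part of proliferation in the results on non-irradiated cells was not tested.

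**Figure D2:**
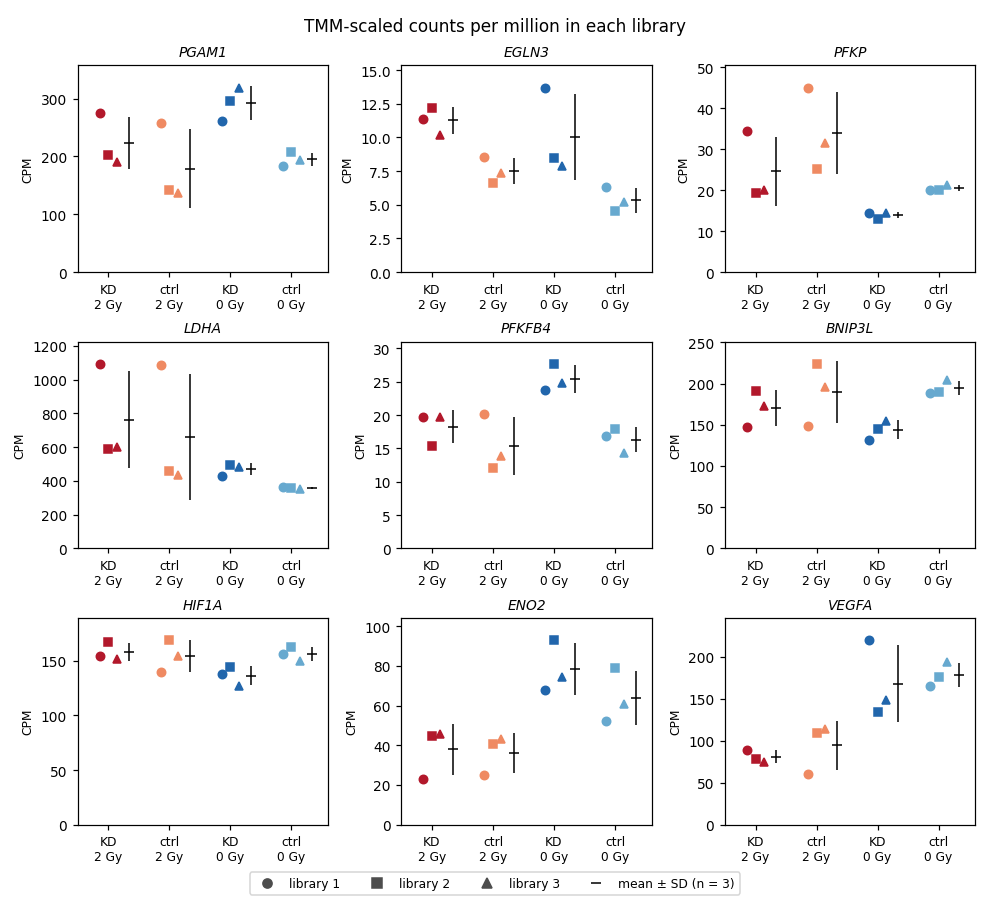
CPM in each library for 9 of the genes; columns are irradiated knockdowns, irradiated controls, non-irradiated knockdowns and non-irradiated controls, symbols mark library numbers, and black marks the mean ± SD of 3. At 0 Gy the 3 knockdown libraries of PGAM1 (262 to 319 CPM) lie above the 3 controls (183 to 207 CPM), and library 1 of both irradiated groups stands apart for LDHA, at 1094 and 1088 CPM.

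With irradiation, the genes that passed were 3 of those called at 0 Gy, in the same direction: PGAM1 and EGLN3 were higher and PFKP lower in knockdowns. In the model of group means 0 of 31 genes passed, where 0.297% of all genes did. Only EGLN3 had an unadjusted p under 0.05 (0.0216, adjusted p = 0.427), against 9.28% of all genes, and DESeq2 called 0, against 1.54%. With the replicate block 3 of 31 passed (9.68%, against 11.5% of all genes), which is near the background. Libraries did not overlap for 3 of 31 (9.68%, against 13.5%): EGLN3, higher (5.82% of all genes were), and PFKM and P4HA2, lower (7.72% of all genes were).

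EGLN3 had 11.4, 12.2 and 10.2 CPM in irradiated knockdowns, against 8.55, 6.62 and 7.39 CPM in irradiated controls. Every knockdown library was above every control, with a blocked log2 fold change of 0.59 ± 0.14 (edgeR adjusted p = 0.0194), lost without pair 2 (0.234) or pair 3 (0.114) at 2 Gy. PGAM1 had 275, 203 and 191 CPM in irradiated knockdowns, against 257, 142 and 137 CPM in irradiated controls. The groups overlapped, with pair 1 high in both, while the knockdown was higher in 3 of 3 pairs (0.36 ± 0.08, adjusted p = 0.0196, lost without pair 2 at 0.23 or pair 3 at 0.207). PFKP had 34.4, 19.4 and 20.1 CPM in irradiated knockdowns, against 45.1, 25.3 and 31.6 CPM in irradiated controls. It was lower in 3 of 3 pairs (−0.47 ± 0.08, adjusted p = 0.00502, lost without pair 3 at 0.1). Without pair 1 at 2 Gy and with no block, PGAM1 alone of the 31 passed (0.49 ± 0.12, adjusted p = 0.0492; 1.87% of all genes passed), and PFKP had 0.0736. With the block and without that pair 7 passed, which added ALDOC, PFKFB4, LDHA and PDK1, and without pair 1 at 0 Gy 6 passed, which added TPI1, LDHA and PFKM. As the share of all genes in these blocked fits is not given, the added genes are not read as a result about the 31.

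LDHA came next. It had 1094, 591 and 602 CPM in irradiated knockdowns, against 1088, 457 and 435 CPM in irradiated controls, a log2 fold change of 0.28 ± 0.09 with the block (adjusted p = 0.0649). On the log2 scale the pairs differed by 0.01, 0.37 and 0.47, so pair 1 was level. Over the 17 glycolytic enzymes the median log2 fold change was −0.00 (8 positive and 9 negative, all genes −0.01), and 0.10 (11 positive and 6 negative, all genes 0.00) without pair 1. The proliferation list was lower in knockdowns in 3 of 3 irradiated pairs (mean log2 differences of −0.69, −0.56 and −0.51). In the same 3 pairs PGAM1, LDHA, PFKFB3, EGLN3 and BNIP3 were above control, and PFKL, PFKM, PFKP, TPI1, LDHB, BNIP3L, P4HA2 and ANKRD37 below it. The part of proliferation in these values was not tested.

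The other genes called at 0 Gy were not called at 2 Gy, and their irradiated groups overlapped. HK1 had 193, 105 and 114 CPM in irradiated knockdowns, against 203, 89.1 and 97 CPM in irradiated controls (0.13 ± 0.08 with the block). PKM had 1173, 775 and 814 CPM in irradiated knockdowns, against 1285, 656 and 710 CPM in irradiated controls (0.10 ± 0.08). PFKFB3 had 35.9, 20.3 and 20.4 CPM in irradiated knockdowns, against 35, 15.6 and 17 CPM in irradiated controls (0.22 ± 0.10, adjusted p = 0.184). In all 3 genes library 1 was the highest of its group, and the knockdown was above its control in pairs 2 and 3. PFKFB4 had 19.7, 15.4 and 19.7 CPM in irradiated knockdowns, against 20.2, 12 and 13.8 CPM in irradiated controls (0.28 ± 0.11, 0.126). ALDOC had 85.3, 90.6 and 97.8 CPM in irradiated knockdowns, against 90.9, 74.6 and 82.4 CPM in irradiated controls (0.15 ± 0.08). Both showed the same split, with pair 1 lower and pairs 2 and 3 higher in knockdowns.

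ENO2, at 23.2, 44.9 and 45.9 CPM in irradiated knockdowns and 24.8, 40.6 and 43.3 CPM in irradiated controls, had a log2 fold change of 0.05 ± 0.07. PFKL had 100, 80.9 and 89 CPM in irradiated knockdowns, against 110, 81.2 and 93 CPM in irradiated controls (−0.07 ± 0.06). In pairs 2 and 3 both genes lay within 0.14 of their controls on the log2 scale. For the oxygen genes, BNIP3L had 147, 191 and 173 CPM in irradiated knockdowns, against 149, 224 and 196 CPM in irradiated controls (−0.15 ± 0.06, adjusted p = 0.166). It was below its control in 3 of 3 pairs. EGLN1 had 61.6, 68.2 and 60.2 CPM in irradiated knockdowns, against 54.9, 69.5 and 64.8 CPM in irradiated controls (0.01 ± 0.07, 0.936). HIF1A had 154, 167 and 152 CPM in irradiated knockdowns, against 140, 169 and 154 CPM in irradiated controls (0.03 ± 0.06, 0.761). Both were higher in pair 1 and slightly lower in pairs 2 and 3.

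Among abundant genes called in no knockdown comparison, GAPDH had 2667, 1783 and 1883 CPM in irradiated knockdowns, against 3130, 1698 and 1822 CPM in irradiated controls (−0.04 ± 0.09). TPI1 had 734, 487 and 532 CPM in irradiated knockdowns, against 1002, 537 and 579 CPM in irradiated controls (−0.24 ± 0.08, adjusted p = 0.0901). SLC2A1 had 68.2, 41.9 and 39.2 CPM in irradiated knockdowns, against 63.5, 39.1 and 43.2 CPM in irradiated controls (0.02 ± 0.07). TPI1 was below its control in 3 of 3 irradiated pairs. The remaining genes, HK2, GPI, PFKM, ALDOA, PGK1, ENO1, LDHB, PDK1, BNIP3, KDM3A, P4HA1, P4HA2, ANKRD37 and VEGFA, had blocked log2 fold changes between −0.24 and 0.13. Of these, VEGFA and PDK1 did not move one way: by pair, VEGFA differed by 0.56, −0.47 and −0.62 and PDK1 by 0.34, −0.48 and −0.32 on the log2 scale. Without pair 1, and with no block, the log2 fold change was −0.55 ± 0.19 for VEGFA (adjusted p = 0.19) and −0.40 ± 0.16 for PDK1 (adjusted p = 0.25), and neither passed.

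Across both states, 4 genes were above control in all 6 pairs (PGAM1, LDHA, PFKFB3 and EGLN3; 12.9%, against 14.4% of all genes) and 3 below it (PFKP, LDHB and BNIP3L; 9.68%, against 14.4%). Neither share exceeds that of all genes. For the difference of the knockdown effects, 2 Gy minus 0 Gy, 0 of 31 genes passed in either model, as for all genes (0%), and 0 of 31 without pair 1 at 2 Gy. At an unadjusted p under 0.05 there were 0 of 31 in the model of group means (2.04% of all genes) and 7 of 31 with the block (12.2% of all genes), namely PFKL, ENO2, PFKFB4, HIF1A, EGLN1, BNIP3L and ANKRD37. Their differences were −0.28, −0.25, −0.36, 0.23, 0.31, 0.29 and −0.53 on the log2 scale. A gene called at 0 Gy and not at 2 Gy is therefore not shown to respond differently. Leaving out pair 1 at 0 Gy gave 1 call with the block, P4HA2, in a fit for which the share of all genes is not given.

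**Figure D3:**
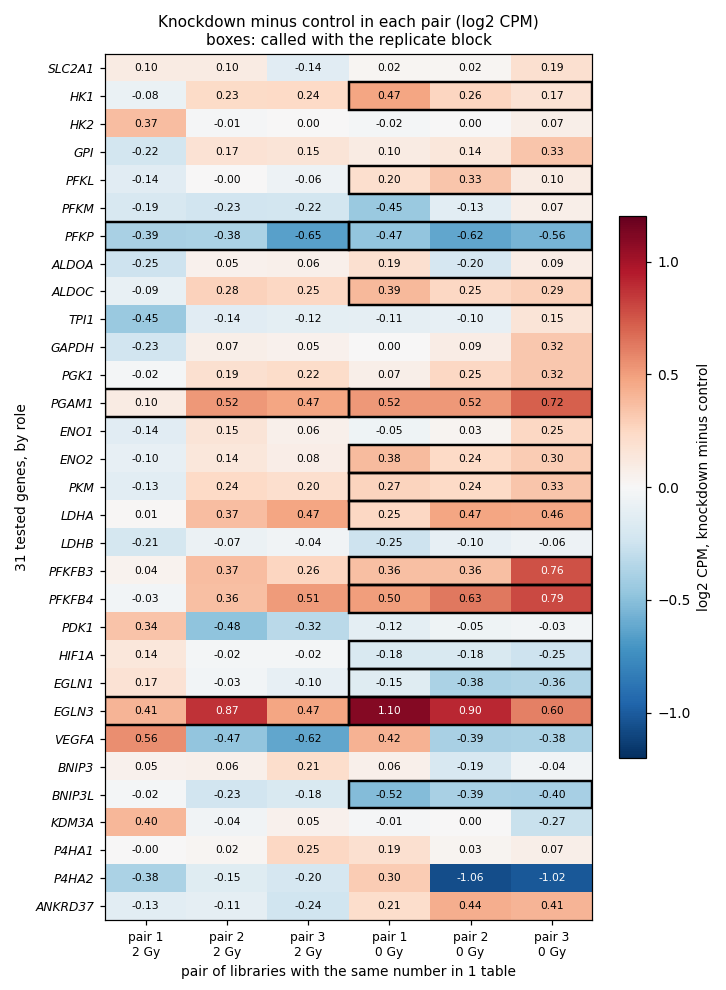
Difference of log2 CPM, knockdown minus control, for the 31 tested genes in the 3 irradiated and the 3 non-irradiated pairs; red is higher and blue lower in the knockdown, and boxes mark genes called with the replicate block in that irradiation state. EGLN3 is positive in all 6 pairs (0.41 to 1.10) and PFKP negative in all 6 (−0.65 to −0.38).

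Several steps are shared by paralogous enzymes, and the makeup of these families was described per length, for 11 shares in 9 families, chosen after the values were seen. The libraries did not overlap for 5 of the 11 shares at 0 Gy (PFKL, PFKP, EGLN3, LDHA and BNIP3L) and for 2 of 11 at 2 Gy (EGLN3 and P4HA2). The ratio of LDHA to LDHB was 0.707, 0.856 and 0.866 in non-irradiated knockdowns, against 0.5, 0.576 and 0.607 in non-irradiated controls. No library overlapped, and at 3 against 3 the exact permutation p of 0.1 is the smallest possible (2-sided; 0.314 after Benjamini-Hochberg adjustment over 22 tests of shares, with LDHA as a percent of both). In irradiated cells the ratio was 0.999, 0.830 and 0.853 in knockdowns, against 0.861, 0.613 and 0.601 in controls. It was higher in 3 of 3 pairs, although the groups overlapped (exact p = 0.3, adjusted 0.471). Of the 50-base words of LDHB, 29.4% also occur in other genes, against 4.03% for LDHA. The size of the ratio depends on merged exon length, 6210 bases for LDHA and 2983 for LDHB. In CPM without that division, LDHA exceeded LDHB in every library. The other shares depend on merged length in the same way.

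EGLN3 as a percent of EGLN1 plus EGLN3 was 17.3, 11.4 and 10.5% in non-irradiated knockdowns, against 8.02, 4.96 and 5.64% in non-irradiated controls. In irradiated cells it was 15.4, 15 and 14.4% in knockdowns, against 13.3, 8.60 and 10.1% in controls. This was the only one of the 11 shares without overlap in both states (exact p = 0.1 in each, the smallest possible, adjusted 0.314). PFKP made up 8.73, 7.10 and 7.25% of phosphofructokinase in non-irradiated knockdowns, against 9.80, 10.5 and 10.9% in controls. With irradiation PFKP made up 16.2, 10.6 and 10.0% in knockdowns, against 18.3, 12.0 and 13.4% in controls. It was lower in 3 of 3 pairs in both states, with no overlap at 0 Gy only. PFKL made up 26.1, 28.4 and 24.8% of phosphofructokinase in non-irradiated knockdowns, against 18.4, 21.8 and 23.5% in controls, without overlap (exact p = 0.1, adjusted 0.314). P4HA2 made up 5.52, 6.44 and 6.67% of both collagen prolyl hydroxylase subunits in irradiated knockdowns, against 7.06, 7.18 and 8.93% in irradiated controls, also without overlap (exact p = 0.1, adjusted 0.314). BNIP3L made up 53.2, 52.2 and 54.7% of the BNIP3 pair in non-irradiated knockdowns, against 62.9, 55.7 and 60.9% in controls, again without overlap, and the groups overlapped at 2 Gy.

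**Figure D4:**
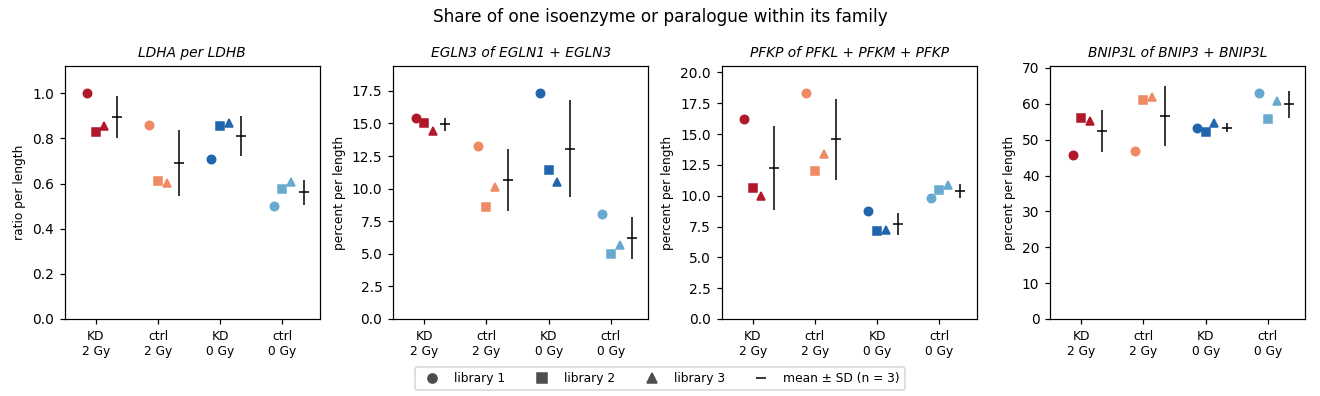
Share of LDHA, EGLN3, PFKP and BNIP3L within their families, per length of merged exons, in each library of the irradiated knockdowns, irradiated controls, non-irradiated knockdowns and non-irradiated controls; black marks the mean ± SD of 3. The LDHA to LDHB ratio averages 0.81 in non-irradiated knockdowns and 0.561 in non-irradiated controls, and EGLN3 shows no overlap in either irradiation state.

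The promoters of LDHA, LDHB and EGLN3 are shown because LDHA and LDHB had fold changes of opposite sign and EGLN3 had the largest positive one. In edgeR with the replicate block, LDHB was called in neither state (adjusted p = 0.163 at 0 Gy and 0.352 at 2 Gy). LDHA was called there at 0 Gy only. An opposite response of LDHA and LDHB is therefore not shown. HIF binds the cores ACGTG and GCGTG, searched here on both strands, and CACGTG is the E-box that MYC and related factors bind. CACGTG contains ACGTG, so the motifs overlap. Sequences are from RefSeq (GRCh38.p14), from 250 bases before to 50 after an annotated start, 5′ to 3′ on the gene's strand, with matches in capitals. The windows are chr11:18394313-18394612 (+) for LDHA, the more upstream of 2 starts, chr12:21657793-21658092 (−) for LDHB and chr14:33951025-33951324 (−) for EGLN3. In the count tables LDHB and EGLN3 extend 100015 and 511700 bases further upstream than these starts, so the counts also cover transcripts that begin elsewhere.
LDHA: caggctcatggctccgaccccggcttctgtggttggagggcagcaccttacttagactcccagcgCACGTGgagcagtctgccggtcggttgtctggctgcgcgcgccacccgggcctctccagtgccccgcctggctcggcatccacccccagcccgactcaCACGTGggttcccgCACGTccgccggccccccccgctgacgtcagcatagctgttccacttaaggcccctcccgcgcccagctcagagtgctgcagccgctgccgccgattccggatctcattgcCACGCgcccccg
LDHB: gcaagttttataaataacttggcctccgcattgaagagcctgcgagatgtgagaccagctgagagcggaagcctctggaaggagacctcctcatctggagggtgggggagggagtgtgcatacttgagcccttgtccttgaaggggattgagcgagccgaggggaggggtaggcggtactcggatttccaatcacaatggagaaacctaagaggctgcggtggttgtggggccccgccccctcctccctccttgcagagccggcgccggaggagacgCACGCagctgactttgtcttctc
EGLN3: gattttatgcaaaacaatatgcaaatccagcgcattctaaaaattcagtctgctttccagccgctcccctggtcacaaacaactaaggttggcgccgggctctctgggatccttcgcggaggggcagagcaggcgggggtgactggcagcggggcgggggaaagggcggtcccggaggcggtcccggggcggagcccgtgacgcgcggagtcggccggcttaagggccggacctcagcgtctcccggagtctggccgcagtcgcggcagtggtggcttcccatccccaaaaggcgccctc

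The LDHA window holds 2 copies of CACGTG, 1 further CACGT and 1 CACGC, the LDHB window 1 CACGC, and the EGLN3 window none. Across the genes, 32 of 34 had a promoter in the table (not VEGFA and BNIP3L), with 60 windows in all. ACGTG was found in 38.3% of these windows, against 21.4% of 35116 windows of all genes, GCGTG in 40% against 36.5%, and CACGTG in 13.3% against 7.26%. Either core was found in 66.7% of the windows, against 48.4% of all windows. By gene, pooling all windows of a gene, it was found for 29 of 32 and not for EGLN3, P4HA2 and PGAM1. Pooling windows gives a gene more chances of a match, and no share by gene was taken over all genes. The count by gene therefore cannot be set against the share of windows. The PGAM1 window starts from a position 1658 bases inside the gene as the count tables define it. These matches describe letters in a window and are not binding sites.

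Irradiation was compared across the 2 tables. VEGFA, ENO2 and P4HA2 had negative fold changes and PFKP, LDHA and PFKFB3 positive ones in both knockdowns and controls. In knockdowns 1 of 31 genes passed (3.23%, against 3.58% of all genes) and in controls 0 of 31 (against 2.26%), in edgeR's model of group means. At an unadjusted p under 0.05 there were 5 of 31 in knockdowns (against 20.9% of all genes) and 11 of 31 in controls (against 21.8%). DESeq2 called 3 in knockdowns (PFKP, ENO2 and VEGFA, against 8.36% of all genes) and 2 in controls (VEGFA and EGLN1, against 8.01%). The libraries did not overlap for 10 of 31 genes in each (32.3%, against 29.8% of all genes in knockdowns and 27.6% in controls).

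VEGFA (chr6:43770184-43786487, + strand) was the gene that passed. It had 89.4, 78.6 and 74.3 CPM in irradiated knockdowns, against 220, 134 and 149 CPM in non-irradiated knockdowns, a log2 fold change of −1.05 ± 0.23 (adjusted p = 0.0347). Irradiated controls had 60.6, 109 and 114 CPM, against 165, 176 and 194 CPM in non-irradiated controls (−0.91 ± 0.23, adjusted p = 0.0639). No library overlapped in either. The knockdown call was lost without any 1 of the 6 knockdown libraries (adjusted p 0.0598 to 0.125) or without control library 2 (0.0564) or 3 (0.0548) at 0 Gy, and its log2 fold change then ran from −1.2 to −0.82. Without control library 1 at 2 Gy, PFKP, ENO2 and LDHA passed as well, in a fit for which the share of all genes is not given. ENO2 behaved alike, with 23.2, 44.9 and 45.9 CPM in irradiated knockdowns, against 67.7, 93.1 and 74.7 CPM in non-irradiated knockdowns (−1.05 ± 0.28, adjusted p = 0.0633). In controls ENO2 had 24.8, 40.6 and 43.3 CPM with irradiation, against 52.1, 79.0 and 60.6 CPM without (−0.82 ± 0.28, adjusted p = 0.123).

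PFKP had a log2 fold change of 0.82 ± 0.24 in knockdowns (adjusted p = 0.085) and 0.73 ± 0.24 in controls (0.114), with no overlap in either. Pair 1 carried part of the positive values. The summed level of 17 glycolytic enzymes was 11244, 7400 and 7888 CPM in irradiated knockdowns, against 6700, 7748 and 7893 CPM in non-irradiated knockdowns, and 12679, 6831 and 7357 CPM in irradiated controls, against 6395, 7244 and 6548 CPM in non-irradiated controls. Only library 1 of each irradiated group was above the range of the others. The 18 proliferation genes summed to 987, 528 and 500 CPM in irradiated knockdowns, against 580, 1129 and 918 CPM in non-irradiated knockdowns, and to 1480, 694 and 653 CPM in irradiated controls, against 624, 328 and 344 CPM in non-irradiated controls, and their part in these results was not tested. The median log2 fold change of these enzymes was 0.22 in knockdowns (14 positive and 3 negative) and 0.33 in controls (14 and 3), against −0.00 over all genes in each. Without pair 1 it was 0.02 (10 and 7) and 0.09 (12 and 5). Scaling by library size alone moved the median of all genes by −0.15 in knockdowns and −0.16 in controls, and that of the enzymes to 0.07 and 0.16.

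Without pair 1 the spread shrank and other genes passed. In knockdowns there were 6 of 31 (10.3% of all genes): PFKP (0.50 ± 0.13, adjusted p = 0.0264) and LDHA (0.34 ± 0.10, 0.0398) rose, and VEGFA (−1.13 ± 0.18, 0.00373), PGAM1 (−0.57 ± 0.11, 0.00632), ENO2 (−0.79 ± 0.17, 0.0137) and PFKFB4 (−0.54 ± 0.15, 0.034) fell. In controls there were 3 of 31 (4.97% of all genes): PFKP (0.47 ± 0.12, 0.0485) rose, and PGAM1 (−0.49 ± 0.11, 0.023) and VEGFA (−0.68 ± 0.18, 0.0488) fell. PGAM1 thus had a lower level in pairs 2 and 3 at 2 Gy, with 203 and 191 CPM in irradiated knockdowns, against 262 to 319 CPM in non-irradiated knockdowns. In irradiated controls those pairs had 142 and 137 CPM, against 183 to 207 CPM in non-irradiated controls. Pair 1, at 275 and 257 CPM, was in or above the non-irradiated range.

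**Figure D5:**
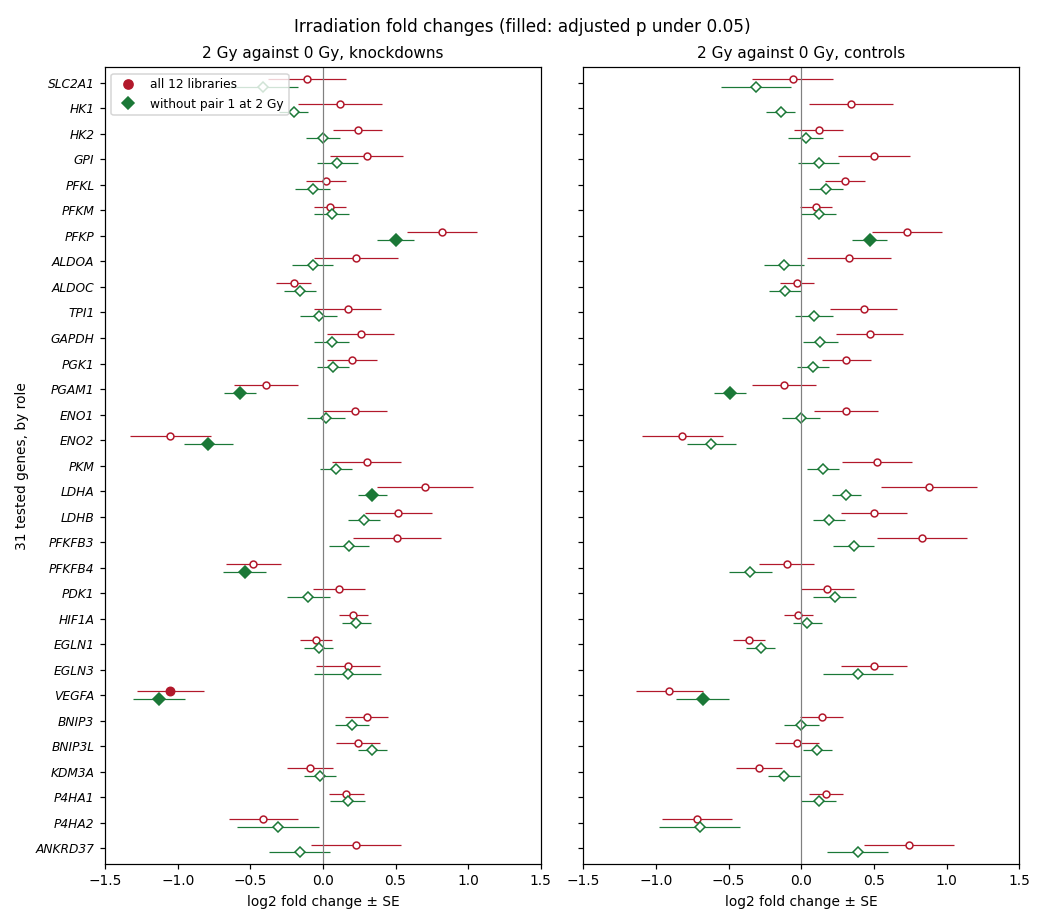
Log2 fold change ± SE of 2 Gy over 0 Gy for the 31 tested genes, in knockdowns (left) and controls (right), with all 12 libraries (circles) and without pair 1 at 2 Gy (diamonds); filled symbols have an adjusted p under 0.05. VEGFA lies at −1.05 in knockdowns and −0.91 in controls with all libraries, and LDHA in controls lies at 0.88 with all libraries and at 0.31 without pair 1.

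Neighbouring genes outside the 34 were taken from 4 lists. Of their 76 tested genes, 0 passed in either knockdown comparison in edgeR's model of group means. There, 13 had an unadjusted p under 0.05 at 0 Gy (against 17.4% of all genes) and 10 at 2 Gy (against 9.28%), and DESeq2 called 3 at 0 Gy (against 6.01%) and 1 at 2 Gy (against 1.54%). With the replicate block at 0 Gy, 6 of 27 tested genes of other glycolytic and carbon metabolism were higher and 3 lower, of the HIF pathway 3 of 11 and 1, of other HIF targets 4 of 28 and 5, and of the pentose phosphate pathway 2 of 10 and 1. Among all genes 13.7% were higher and 14.1% lower. At 2 Gy the counts were 3 and 1, 1 and 1, 0 and 2, and 2 and 3, against 5.43% and 6.05% of all genes.

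Some of these genes moved in both states. PC, the carboxylase that feeds pyruvate to oxaloacetate, had 82.1, 92.9 and 95.6 CPM in non-irradiated knockdowns, against 48.3, 63.0 and 57.9 CPM in controls (0.68 ± 0.08 with the block, adjusted p = 0.000184), and 0.29 ± 0.08 (0.0376) with irradiation. TIGAR, the p53-induced bisphosphatase that lowers fructose 2,6-bisphosphate, was also higher, by 0.43 ± 0.14 (0.0489) at 0 Gy and 0.60 ± 0.13 (0.0262) at 2 Gy. VHL, which targets hydroxylated HIF1A for destruction, was higher by 0.27 ± 0.06 (0.008) and 0.35 ± 0.06 (0.00504). In the other direction, ERO1A, the oxidase of disulfide formation, had 24.3, 18.9 and 26.1 CPM in non-irradiated knockdowns, against 38.9, 31.6 and 41.9 CPM in controls (−0.70 ± 0.08, 0.000121), and −0.48 ± 0.08 (0.00296) with irradiation. TMEM45A was lower too, at −1.90 ± 0.37 (0.00354) and −1.27 ± 0.28 (0.016), but at levels of at most 2.45 CPM.

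The rest of the named neighbours were called in 1 state or none. PGM1, the phosphoglucomutase of glycogen metabolism, had −0.36 ± 0.09 (edgeR adjusted p = 0.00984) and the epimerase RPE −0.34 ± 0.09 (0.0182) at 0 Gy with the block. EPAS1, the HIF2 alpha subunit, and EGLN2, the remaining HIF prolyl hydroxylase, were higher at 0 Gy by 0.61 ± 0.19 (0.0355) and 0.43 ± 0.13 (0.032). PRPS2 and PGLS were lower at 2 Gy, with −0.27 ± 0.07 (0.0252) and −0.26 ± 0.08 (0.0447). STC2 was not called with the block (−0.69 ± 0.41 at 0 Gy and −0.80 ± 0.43 at 2 Gy). It had 98.4, 93.9 and 96.4 CPM in irradiated knockdowns, against 77.4, 234 and 247 CPM in irradiated controls, where library 1 of the controls stands apart. Without pair 1 at 2 Gy and with no block STC2 passed in both states (−0.67 ± 0.13, adjusted p = 0.0054, and −1.34 ± 0.16, 0.000898).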

How the data were processed

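Gene-level read counts were deposited by the authors in 2 tables, 1 for each irradiation state, and per the file headers follow the featureCounts layout with merged exon coordinates and lengths. STAR 2.5, Subread 1.5.3 with featureCounts, edgeR 3.20.8 and the build GRCh38 are listed in the submitters' processing notes. With strand and multi-mapping settings not given in the sources used here, overlapping and near-identical genes are uncertain.

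The genes, lists and tests were chosen with earlier results of these data known. Counts of 12 libraries were filtered (filterByExpr, minimum count 10, minimum total 15), scaled by TMM (factors 0.9 to 1.076) and fitted together by edgeR 4.0.16 (R 4.3.3; robust quasi-likelihood, 1 mean for each group, 8 residual degrees of freedom). A call is an adjusted p below 0.05 after Benjamini-Hochberg correction over 17191 genes. Standard errors are the absolute log2 fold change over the square root of F. Because same-numbered libraries correlated within tables (0.23 to 0.78) and not across them (−0.15 to 0.14), a fit with the replicate block within tables (4 residual degrees of freedom) stands beside it. Values in every library are given for genes called in any comparison in either fit and for the most abundant of each role, and of each other list up to 3 genes with the smallest p in either knockdown comparison are named. CPM per kb is CPM divided by merged exon length. Alternatives were DESeq2 1.42.0, limma-voom (limma 3.58.1), other scalings, no filter, fewer samples and left-out libraries. Scripts were tested on simulated data.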

Additional observations from a re-analysis of the deposited data

Results flagged for a closer look

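Opposite directions in the irradiation states were seen for PFKL and ANKRD37. The knockdown library was above its control in 3 of 3 non-irradiated pairs and below it in 3 of 3 irradiated pairs. The share of all genes with this pattern is not given, so it is not read as a result about these genes as a set. ANKRD37 had 2.19 to 5.76 CPM, and 35.2% of its exon positions lie in an antisense gene. In pair 2 at 2 Gy PFKL was near level, at 80.9 CPM in the knockdown and 81.2 CPM in the control. For PFKL the difference of the knockdown effects, 2 Gy minus 0 Gy, was −0.28 on the log2 scale, with pair values of −0.14 to −0.00 at 2 Gy and 0.10 to 0.33 at 0 Gy. The test of that difference did not pass in edgeR (adjusted p = 1 without and 0.304 with the replicate block). For ANKRD37 the difference was −0.52, with pair values of −0.24 to −0.11 at 2 Gy and 0.21 to 0.44 at 0 Gy (adjusted p = 1 without and 0.37 with the block).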

How the results depend on the processing

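The number of the 31 genes called depended on how the pairing entered the model. For the knockdown at 0 Gy it was 0 without a block, 14 with the replicate block, 14 with the block and RLE scaling or library size alone, and 15 with the block and limma-voom. Without a block it was 1 with no filter, 2 with DESeq2, 5 with the compared groups alone, 9 without pair 1 at 2 Gy, 0 to 4 when 1 library was left out and 8 to 15 when 1 pair was left out of the blocked fit (13 and 11 without pair 2 and pair 3 at 2 Gy). For the knockdown at 2 Gy it was 0 without and 3 with the block (3 with RLE or library size alone, 4 with limma-voom), 1 without pair 1 at 2 Gy, 0 when any 1 library was left out and 0 to 7 when 1 pair was left out of the blocked fit. For irradiation in knockdowns it was 1, and 3 with a block across tables, 2 with library size alone, 3 with DESeq2, 6 without pair 1 and 0 to 4 when 1 library was left out. In controls it was 0, and 1 with a block across tables, 2 with library size alone, 1 with no filter, 2 with DESeq2 and 3 without pair 1. For the difference of the knockdown effects it was 0, and 0 to 1 when 1 pair was left out of the blocked fit. The cause was not tested. Shares of all genes are given above for the model of group means, the replicate block within tables, DESeq2 and the fit without pair 1. For the other fits no share of all genes is given, so their counts cannot be set against a background. The fits without pair 1, the blocked fits with other scalings or limma-voom and those that leave out a pair were chosen after the data were seen. Over 21 results for single genes, 573 alternative values held 386 with the same direction and side of the threshold, 179 that newly passed, 8 that no longer passed, all of VEGFA in irradiated knockdowns, and 0 with the opposite direction. Of the 21, only that VEGFA result passed in the model of group means, so no other could be lost. For the others the same side means not passing. The CPM of 3 counts (0.0905 to 0.203) bounds CA9, which had 0 counts. Low counts limit SLC16A3 (1 to 10 in a library) and ADM (1 to 11). For the rest, 3 libraries per group with 8 or 4 residual degrees of freedom are the limit.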
